A study of Mus musculus with 96 samples.

Results

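Transcripts of 8 germline genes were followed through 48 single mouse embryonic stem (ES) cells: Dazl, Ddx4, Mael, Sycp3, Tex19.1, Morc1, Tuba3a and Stk31. The genes were taken by symbol from a table of 23284 gene rows, and each symbol had 1 row. All cells were J1 ES cells, which the labels give as 1 clone, grown without feeders in medium with fetal bovine serum and leukaemia inhibitory factor (LIF). Each cell was captured on a Fluidigm C1 chip, its cDNA was amplified with the SMARTer Ultra Low kit, and its Nextera XT library was sequenced on 2 lanes, whose reads were added. The cells were divided by the transcript of Gata6, a transcription factor of primitive endoderm, into 13 Gata6-high cells, over 20 CPM (scaled counts relative to a library total of 1e+06), and 35 Gata6-low cells, under 20 CPM. All 48 cells share a culture condition, and the labels name no separate cultures, so a state counts as 1 sample here and no p-value is given. Intervals are exact (Clopper-Pearson, 95%) and cover counting error over cells only.

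The 8 genes act mainly in germ cells. The promoters of many such genes carry DNA methylation in somatic cells, and in ES cells they are held down by DNA methylation and by the repressor complex PRC1.6. That complex holds MGA with MAX, which binds the E-box CACGTG, and E2F6, which binds sites with the core GCGGGA. ES cells in serum are known to be a mixed population in which some cells take up a primitive endoderm program.

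Promoter sequences of 7 of the 8 genes were found in a RefSeq table (build GRCm38.p6), as windows from 250 bases before to 50 bases after the start; Morc1 had no entry. Sycp3, Ddx4 and Stk31 are printed because each holds CACGTG, and the first 2 also hold GCGGGA; capitals mark these motifs. Positions below are counted from the start, and both strands were searched. Sycp3 lies on the plus strand at chr10:88459337-88459636, Ddx4 on the minus strand at chr13:112652261-112652560 and Stk31 on the plus strand at chr6:49395289-49395588, and each is written 5′ to 3′ along its gene.
Sycp3: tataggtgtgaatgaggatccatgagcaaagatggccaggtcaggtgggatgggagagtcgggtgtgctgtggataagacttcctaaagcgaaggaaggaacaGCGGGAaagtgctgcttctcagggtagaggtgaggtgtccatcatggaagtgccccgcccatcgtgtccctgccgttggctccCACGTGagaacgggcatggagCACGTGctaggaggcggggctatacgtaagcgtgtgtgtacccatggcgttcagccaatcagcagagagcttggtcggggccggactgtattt
Ddx4: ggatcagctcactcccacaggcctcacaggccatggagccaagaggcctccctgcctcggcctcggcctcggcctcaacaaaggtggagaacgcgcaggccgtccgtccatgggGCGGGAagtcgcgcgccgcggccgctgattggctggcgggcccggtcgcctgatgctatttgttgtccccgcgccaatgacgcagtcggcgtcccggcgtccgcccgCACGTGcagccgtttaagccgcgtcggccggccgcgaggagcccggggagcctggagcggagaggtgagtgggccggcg
Stk31: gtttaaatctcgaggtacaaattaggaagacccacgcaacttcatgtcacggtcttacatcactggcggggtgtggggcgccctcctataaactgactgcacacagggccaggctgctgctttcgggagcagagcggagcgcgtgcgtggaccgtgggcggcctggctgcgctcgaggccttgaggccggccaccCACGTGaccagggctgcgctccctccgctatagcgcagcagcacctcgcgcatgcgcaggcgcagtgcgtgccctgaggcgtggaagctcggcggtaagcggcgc

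Sycp3 held CACGTG at -64 and -43 and GCGGGA at -147. Ddx4 held CACGTG at -29 and GCGGGA at -136, and Stk31 held CACGTG at -55. In Mael, CACGTG lay at -223, and GCGGGA lay at -143 and at 12 after the start. CACGTG was thus present in 4 of the 7 windows, against 7.24% of 27025 promoters in the table. GCGGGA was present in 5 of the 7 (Tex19.1 at -33 and Tuba3a at -119 in addition), against 20.1%, and both motifs in 3 of the 7, against 2.05%. The 7 windows had 12 to 38 CpG dinucleotides, with a median of 24, while the median of all promoters was 7. Among the 10856 promoters with at least 12 CpG dinucleotides these shares were higher, at 11.2% for the E-box and 42.5% for the E2F6 core. CACGTG and GCGGGA share no bases in these windows, and a match only describes the letters. Dazl held neither motif.

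Tuba3a and its near copy Tuba3b are shown around the GCGGGA match (written TCCCGC along the gene), because their reads are hard to separate. The Tuba3a window lies on the minus strand at chr6:125286165-125286230 and the Tuba3b window on the plus strand at chr6:145615827-145615892. A run of 33 bases over the motif was identical, and 56 of the 66 positions were the same.
Tuba3a: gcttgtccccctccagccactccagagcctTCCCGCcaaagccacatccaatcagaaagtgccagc
Tuba3b: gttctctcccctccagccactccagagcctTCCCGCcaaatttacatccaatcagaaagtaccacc

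The cells held 7137820 ± 1251220 reads in genes (SD, n = 48), and lanes of a cell agreed within sampling noise (chi-square index 0.964 to 1.05, where 1 is pure sampling). Gata6 lay between 63.7 and 808 CPM in Gata6-high cells and between 0 and 1.11 CPM in Gata6-low cells, so no cell stood near the division. Total reads were 5991691 to 8870973 in Gata6-high cells and 4408953 to 9767245 in Gata6-low cells. Detection therefore means at least 5 reads after each cell was thinned to 4408953 reads. On the scaled CPM of the full counts this is no sharp limit: the lowest level called detected was 0.692 CPM, and Tex19.1 at 1.49 CPM in a Gata6-high cell was not called. Read from both lanes apart, 11 of the 384 calls of a gene in a cell differed. Of the 7 primitive endoderm markers, 7 were detected in Gata6-high cells, with a summed level of 370 to 6185 CPM, and 4 in Gata6-low cells, at 0.117 to 5.38 CPM (Foxa2 at 0). The 7 markers include Gata6 itself, which made the division, so part of this contrast was fixed by it. The summed level of 3 core pluripotency markers (Pou5f1, Sox2, Nanog) was 1.25 to 208 CPM in Gata6-high cells and 51.7 to 414 CPM in Gata6-low cells. The 2-cell-like markers Zscan4c, Zscan4d and Zscan4f, the trophoblast gene Cdx2 and the Sertoli cell gene Amh had 0 reads in all cells. Not all trophoblast and gonadal genes were silent, however. The trophoblast gene Eomes was detected in 2 Gata6-high and 7 Gata6-low cells, at up to 15.7 and 71.9 CPM. Wt1, known from gonadal support cells, was detected in 4 Gata6-high and 6 Gata6-low cells, at up to 263 and 95.3 CPM.

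**Figure D1:**
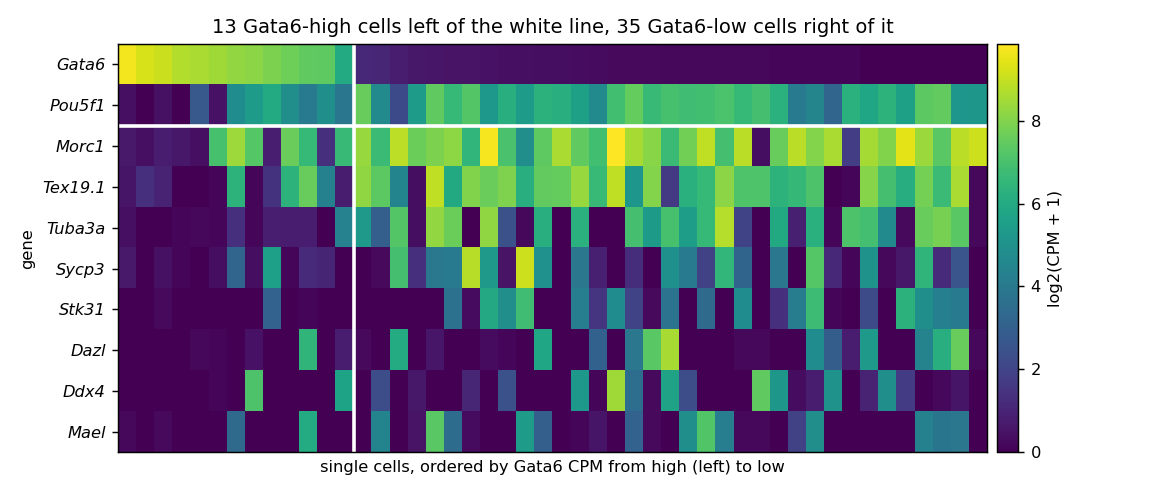
Level of Gata6, Pou5f1 and the 8 germline genes in each single cell, as log2(CPM + 1), with 13 Gata6-high cells on the left and 35 Gata6-low cells on the right, ordered by Gata6. The 5 cells with the highest Gata6 have no germline gene detected, and in the other cells the set of genes detected differs from cell to cell.

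Of the genes that restrain transposons in the germline, Morc1, a GHKL-family ATPase needed for transposon silencing in male germ cells, was the most widely detected. In Gata6-high cells Morc1 had a lowest, median and highest level of 0.309, 1.56 and 337 CPM, and it was detected in 7 of 13 cells (53.8%, interval 25.1% to 80.8%). In Gata6-low cells the lowest, median and highest were 0.288, 256 and 921 CPM, and it was detected in 34 of 35 cells (97.1%, interval 85.1% to 99.9%). Most Gata6-low cells thus had a high level: 33 stood over 10 CPM and 1 under 1 CPM. Of the Gata6-high cells, 6 stood over 10 CPM and 6 under 1 CPM. The ranges of the 2 states overlap, and the mean was 77.2 CPM in Gata6-high cells and 303 CPM in Gata6-low cells, a log2 ratio of -1.97.

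Tex19.1, a mammal-specific protein that limits retrotransposons in germ cells and placenta, was at 0, 0.912 and 188 CPM (lowest, median, highest) in Gata6-high cells and detected in 6 of 13 (46.2%, interval 19.22% to 74.9%). In Gata6-low cells it was at 0, 134 and 481 CPM and detected in 31 of 35 (88.6%, interval 73.3% to 96.8%). As for Morc1, the Gata6-low cells were nearly all high, with 30 over 10 CPM, and the Gata6-high cells were split, with 4 over 10 CPM and 7 under 1 CPM. The mean was 28.8 CPM in Gata6-high cells and 159 CPM in Gata6-low cells, a log2 ratio of -2.46. Its near copy Tex19.2, with which it shares 2.95% of its 50-base words, had 2 reads in all Gata6-high cells together (counting interval 0.242 to 7.22) and 1103 reads in Gata6-low cells. In Gata6-low cells Tex19.2 was detected in 2 of the 35 and reached 134 CPM.

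Mael, a component of the germ granules that hold the piRNA machinery, fell short of the detection minimum in most cells of both states. This does not show that it was absent there: with a minimum of 1 read it was found in 54.3% of Gata6-low and 30.8% of Gata6-high cells. It was at 0, 0 and 64.9 CPM (lowest, median, highest) in Gata6-high cells, with detection in 2 of 13 (15.4%, interval 1.92% to 45.4%). In Gata6-low cells it was at 0, 0.175 and 159 CPM, with detection in 14 of 35 (40%, interval 23.9% to 57.9%). The cells that had it could have much of it: 1 Gata6-high cell and 11 Gata6-low cells stood over 10 CPM. The mean was 5.75 CPM in Gata6-high cells and 14.7 CPM in Gata6-low cells, a log2 ratio of -1.35.

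The RNA-binding genes gave the same kind of pattern, with few positive cells. Dazl, which promotes the translation of germ cell messages, was at 0, 0 and 85.4 CPM in Gata6-high cells (lowest, median, highest) and at 0, 0.145 and 376 CPM in Gata6-low cells. It was detected in 2 of 13 Gata6-high cells (15.4%, interval 1.92% to 45.4%) and in 12 of 35 Gata6-low cells (34.3%, interval 19.13% to 52.2%). A single Gata6-high cell carried 98.4% of the summed Dazl level of that state, and the next highest had 0.692 CPM. In Gata6-low cells 3 cells carried 70.1% of it, and 10 stood over 10 CPM. The mean was 6.68 CPM in Gata6-high cells and 29.3 CPM in Gata6-low cells, a log2 ratio of -2.14.

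Ddx4, the mouse Vasa helicase that marks germ cells, was at 0, 0 and 135 CPM in Gata6-high cells, with detection in 2 of 13 (15.4%, interval 1.92% to 45.4%). In Gata6-low cells it was at 0, 0.267 and 344 CPM, with detection in 15 of 35 (42.9%, interval 26.3% to 60.6%). The 2 positive Gata6-high cells, at 135 and 51.5 CPM, stood within the range of the Gata6-low cells, where 8 cells were over 10 CPM. The mean was 14.3 CPM in Gata6-high cells and 20.9 CPM in Gata6-low cells, a log2 ratio of -0.54. Without its highest Gata6-low cell, which held 47.1% of the level of that state, the log2 ratio was 0.33, and without its highest Gata6-high cell it was -2.28. Both the direction of the Ddx4 difference and its place inside 2-fold thus rest on 1 cell.

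Sycp3, a structural protein of the meiotic chromosome axis, was at 0, 0.305 and 46.1 CPM (lowest, median, highest) in Gata6-high cells and detected in 4 of 13 (30.8%, interval 9.09% to 61.4%). In Gata6-low cells it was at 0, 2.70 and 554 CPM and detected in 21 of 35 (60%, interval 42.1% to 76.1%). Levels in Gata6-low cells were spread widely, with 13 cells under 1 CPM, 7 between 1 and 10 CPM and 15 over 10 CPM. The mean was 4.51 CPM in Gata6-high cells and 47.8 CPM in Gata6-low cells, a log2 ratio of -3.41. The count of Sycp3 is uncertain: 660 of its 1264 exon bases overlap Chpt1 on the opposite strand, and the kit does not mark strand. Chpt1 itself had a lowest, median and highest level of 0, 0.115 and 62.2 CPM in Gata6-high cells and of 0, 0.356 and 148 CPM in Gata6-low cells.

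Tuba3a, an alpha-tubulin known mainly from testis, showed the lowest ratio of the 8 over all cells, though not without single cells. It was at 0, 0.154 and 19.7 CPM (lowest, median, highest) in Gata6-high cells and detected in 3 of 13 (23.1%, interval 5.04% to 53.8%). In Gata6-low cells it was at 0, 45.5 and 427 CPM and detected in 24 of 35 (68.6%, interval 50.7% to 83.1%). Only 1 Gata6-high cell was over 10 CPM, while 21 Gata6-low cells were over 10 CPM and 11 under 1 CPM. The mean was 1.86 CPM in Gata6-high cells and 85.7 CPM in Gata6-low cells, a log2 ratio of -5.53. Tuba3a shares 35.3% of its 50-base words with other genes, most of them with Tuba3b, so part of its reads cannot be assigned with certainty. Tuba3b reached 1.61 CPM in Gata6-high cells and 67.6 CPM in Gata6-low cells.

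Stk31, a protein with tudor and kinase domains known mainly from testis, was at 0, 0 and 7.67 CPM (lowest, median, highest) in Gata6-high cells, with detection in 1 of 13 (7.69%, interval 0.195% to 36.0%). In Gata6-low cells it was at 0, 1.89 and 114 CPM, with detection in 19 of 35 (54.3%, interval 36.6% to 71.2%). No Gata6-high cell was over 10 CPM, against 14 Gata6-low cells. The mean was 0.611 CPM in Gata6-high cells and 16.7 CPM in Gata6-low cells, a log2 ratio of -4.77.

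**Figure D2:**
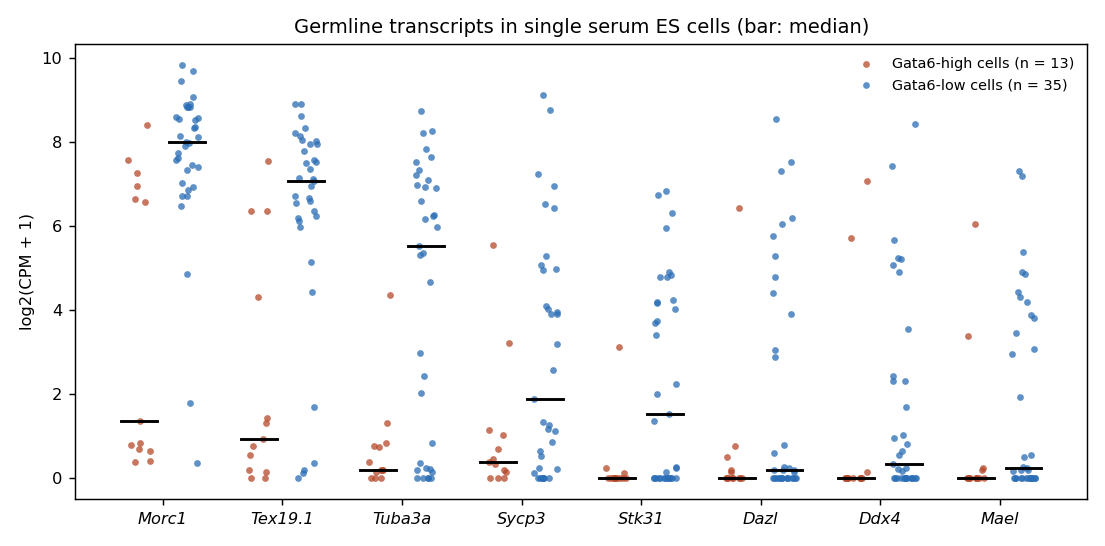
Level of each germline gene as log2(CPM + 1), with 1 point per cell, Gata6-high cells (n = 13) left of Gata6-low cells (n = 35) for each gene, and bars at the medians. The ranges overlap for all 8 genes, and only Morc1, Tex19.1 and Tuba3a have a median over 10 CPM in Gata6-low cells (256, 134 and 45.5 CPM).

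Per kilobase of the longest coding transcript, the mean level in Gata6-low cells ordered the genes as Morc1 (99.4 CPM per kb), Tex19.1 (91.1), Tuba3a (56.8), Sycp3 (40.9), Dazl (9.86), Mael (8.70), Ddx4 (6.94) and Stk31 (5.15). In Gata6-high cells the order was Morc1 (25.4 CPM per kb), Tex19.1 (16.5), Ddx4 (4.76), Sycp3 (3.86), Mael (3.40), Dazl (2.24), Tuba3a (1.23) and Stk31 (0.189). The order was thus not the same in both states, and Morc1 and Tex19.1 were first in each. Neighbours in these orders have overlapping ranges over cells, and the places of Sycp3 and Tuba3a carry the uncertainty of their counts.

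Set against all genes, 7 of the 8 germline genes had a mean at least 2-fold lower in Gata6-high cells, all but Ddx4. The same held for 27.7% of 11746 tested genes, and 18.2% were at least 2-fold higher (genes were tested where they averaged 10 or more reads a cell). The median log2 ratio was -2.2998 over the 8 genes and -0.22 over all tested genes. Between 6.11% and 39.1% of tested genes had a ratio as low or lower, with Tuba3a (log2 ratio -5.53) at the low end and Ddx4 (-0.54) at the high end. All 8 were detected in a smaller share of Gata6-high than of Gata6-low cells, as were 46.2% of tested genes. Core and naive pluripotency genes were lower in the same cells, and their part in the result was not tested.

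Single cells weighed heavily on several ratios. Without its highest Gata6-high cell, the log2 ratio of Dazl was -8.02 in place of -2.14, that of Stk31 -9.49 in place of -4.77 and that of Mael -4.17 in place of -1.35. Likewise, that of Tuba3a was -7.84 in place of -5.53 and that of Sycp3 -5.52 in place of -3.41, so Stk31 and Dazl then stood below Tuba3a. Without its highest Gata6-low cell, Dazl was at -1.52 and Sycp3 at -2.87. Mael was then at -0.86, short of 2-fold. The ratios of Morc1 and Tex19.1 moved less, to -2.45 and -3.36 without the highest Gata6-high cell and to -1.88 and -2.38 without the highest Gata6-low cell. For these 2 genes no single cell took the ratio inside 2-fold. The same held for Dazl, Sycp3, Tuba3a and Stk31. Tuba3a was at -5.35 and Stk31 at -4.50 without the highest Gata6-low cell.

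The Gata6-high cells were not alike. In 8 of them, a division made after seeing the data, 23 core and naive pluripotency genes kept a median of 17.7% to 60.6% of their mean in Gata6-low cells. In the other 5, which had the highest Gata6 levels (392 to 808 CPM), the median was 0.360% to 0.917%. None of the 8 germline genes was detected in any of these 5 cells. A count of 0 of 5 has an exact upper limit of 52.2%. Divided instead by Pou5f1, 5 Gata6-high cells had it not detected, and of the 8 genes Morc1 was detected in 1 of those 5, at 124 CPM (log2 ratio of Morc1 -3.59). The 5 cells with the low pluripotency median together held 17 reads of Tex19.1, 16 of Morc1, 7 of Sycp3 and 4 of Tuba3a. They held 2 reads of Mael, 1 each of Dazl and Stk31 and 0 of Ddx4. These cells had 7385191 to 8625418 reads, within the range of the other cells, and 8072 to 8617 genes with a read, against 8966 to 9693 in the 8 cells that kept pluripotency genes.

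In the 8 cells that kept pluripotency genes, every germline gene was detected in at least 1 cell. Morc1 was detected in 7 of the 8 cells, with a median of 112 CPM, and Tex19.1 in 6, with a median of 10.3 CPM. Sycp3 was detected in 4 of these cells, Tuba3a in 3, Dazl, Ddx4 and Mael in 2 each and Stk31 in 1. Relative to Gata6-low cells the log2 ratio in these 8 cells was -4.86 for Tuba3a, -4.10 for Stk31, -2.73 for Sycp3, -1.77 for Tex19.1, -1.44 for Dazl, -1.27 for Morc1, -0.66 for Mael and 0.16 for Ddx4. In these cells 6 of the 8 genes were thus at least 2-fold lower, against 29.5% of tested genes, and in the 5 cells with the low pluripotency median all 8 were, against 38.8% of tested genes. Dazl, Ddx4, Mael, Sycp3, Tuba3a and Stk31 each had a median under 1 CPM in Gata6-high cells of both kinds. In the cells that kept pluripotency genes these medians were 0.051 CPM for Dazl, 0.673 for Sycp3, 0.684 for Tuba3a and 0 for Ddx4, Mael and Stk31. Morc1 was high in most cells that kept pluripotency genes.

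Gata6-high cells had 0 to 5 of the 8 germline genes detected, with a median of 2, and Gata6-low cells had 1 to 8, with a median of 5. In Gata6-high cells that kept pluripotency genes the number was 1 to 5, with a median of 3.5. The Gata6-low cells with all 8 genes detected numbered 2, and they had 5568431 and 6057228 reads, under the median of 6419369. The Gata6-low cell with 1 gene had 7663499 reads, and its gene was Morc1, at 540 CPM.

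**Figure D3:**
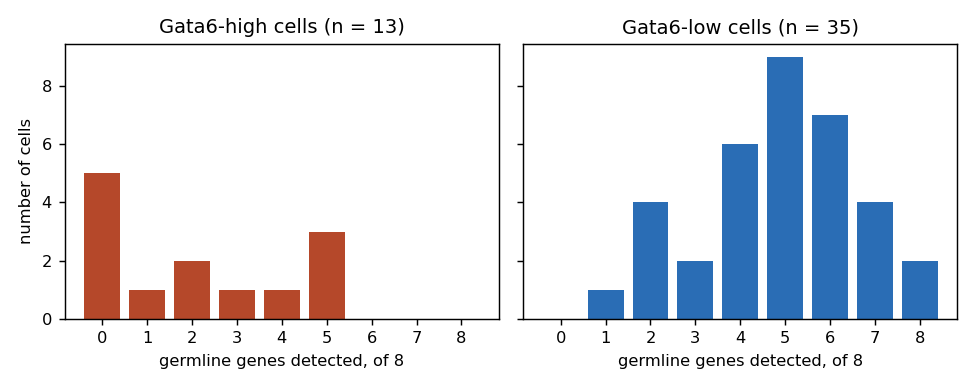
Number of cells (vertical axis) by how many of the 8 germline genes were detected (horizontal axis), Gata6-high cells (n = 13) in the left panel and Gata6-low cells (n = 35) in the right panel. Gata6-high cells range from 0 to 5 genes with 5 cells at 0, and Gata6-low cells from 1 to 8 with 9 cells at 5.

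Co-detection was examined over the 35 Gata6-low cells, so that the states themselves could not create it. These correlations describe cells of 1 culture condition that differ in depth and share their processing. Over the 28 pairs of germline genes, Spearman's rho of the levels ran from -0.33 to 0.47 with a median of 0.05, and it was negative in 9 pairs. The pairs over 0.3 were Tuba3a with Sycp3 (0.47), Tuba3a with Dazl (0.40) and Mael with Sycp3 (0.38). Tuba3a and Sycp3 were detected together in 17 cells, where their separate counts would give 14.4, and Mael and Sycp3 in 11, where they would give 8.40. Ddx4 and Mael, both germ granule components, were detected together in 4 cells, where their separate counts would give 6. Both genes were found together more often than their separate counts give in 22 of 28 pairs, by at most 2.6 cells. Over the whole set, the number of genes detected per cell had an SD of 1.77, where the separate shares of independent genes give 1.24. No such values are given here for other sets of genes, so the excess cannot be called particular to germline genes. The part of differences in depth or in genes with a read was not tested.

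**Figure D4:**
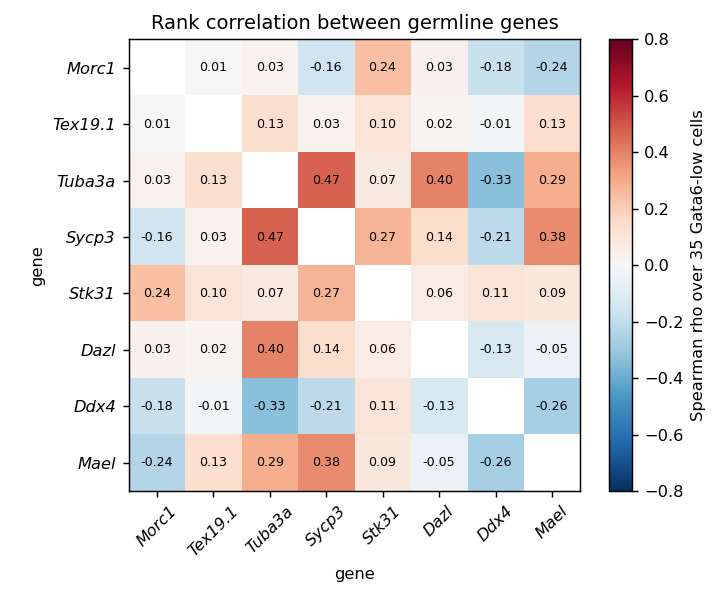
Spearman's rho between the levels of each pair of germline genes over 35 Gata6-low cells, by colour and number, with genes on both axes. The values run from -0.33 (Ddx4 with Tuba3a) to 0.47 (Tuba3a with Sycp3).

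In each Gata6-low cell 58 other germline genes were counted, the near copies Tex19.2 and Tuba3b among them. The number of the 8 genes detected had a rho of 0.60 with the number detected among these 58 (n = 35). Its rho was -0.43 with total reads and 0.40 with the number of genes with a read, and the part of these in the first value was not tested. The rho was 0.14 with Pou5f1, 0.12 with Zfp42 (Rex1), 0.01 with Dppa3 (Stella) and -0.23 with Esrrb, all of them pluripotency genes. Single genes differed here: Morc1 had a rho of 0.51 with Esrrb, and Tex19.1 had 0.41 with Zfp42, while Sycp3 had -0.30 with Esrrb.

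The genes most like each germline gene over the 35 Gata6-low cells, by Spearman's rho among 11737 genes, differed from one to the next. For Morc1 they were Fam48a (0.67) and Gnpnat1 (0.64), for Tex19.1 Ndufa12 (0.56) and Zbtb17 (0.56), and for Mael Klhl25 (0.65) and Rbm41 (0.59). For Dazl they were Tmtc1 (0.65) and Arfgap3 (0.62), and for Ddx4 Hpgds (0.62) and Mff (0.60). Sycp3 was most like 2900064A13Rik (0.70) and 2410076I21Rik (0.67), and Stk31 most like Prmt1 (0.65) and Usp24 (0.62). Tuba3a had its highest rho with its near copy Tuba3b (0.74), with which it shares sequence, and then with Iars (0.69). Each is the highest of the 11737 values and only describes these cells.

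The spread between cells was set beside that of genes with a like mean. Over all 48 cells, 3 of the 8 genes lay among the 1% of tested genes with the largest variance above the trend: Morc1 (variance of log2(CPM + 1) 8.71, trend 2.14, rank 31 of 11746), Tex19.1 (10.0, trend 4.13, rank 50) and Tuba3a (10.5, trend 6.13, rank 98). Dazl followed at rank 700, Sycp3 at 1540, Ddx4 at 1553, Mael at 3623 and Stk31 at 4406. Within Gata6-low cells alone the spread of Morc1 was smaller (variance 3.73, trend 0.963, rank 256 of 11454). Tuba3a (10.4, trend 5.08, rank 18) and Tex19.1 (6.74, trend 2.304, rank 40) were in the first 1%. Tuba3a and Tex19.1 thus differed widely among Gata6-low cells too. With a pseudocount of 10 CPM in place of 1 CPM, 1 of the 8 genes, Morc1, was in the first 1%.

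**Figure D5:**
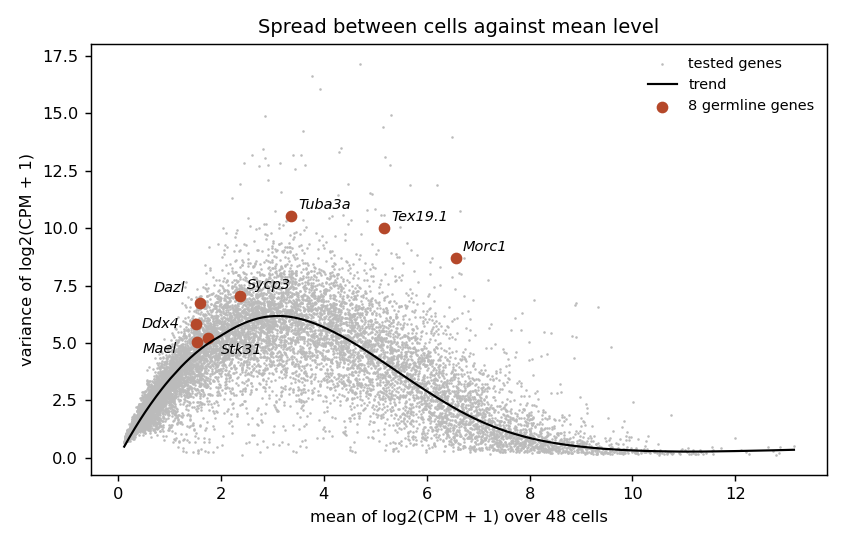
Variance of log2(CPM + 1) over 48 cells against its mean for tested genes (grey), with the fitted trend (line) and the 8 germline genes (red). Morc1, Tex19.1 and Tuba3a stand well above the trend (8.71, 10.0 and 10.5), and Mael and Stk31 lie next to it (5.05 and 5.24).

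Other germline genes were read from 4 lists without the 8 genes. The lists keep the near copies Tex19.2 and Tuba3b, both of them at least 2-fold lower, so the count is not fully separate from the 8 genes. Of 41 tested, 29 had a mean at least 2-fold lower in Gata6-high cells and 6 at least 2-fold higher, with a median log2 ratio of -2.18; over all tested genes the shares were 27.7% lower and 18.2% higher. Of 10 genes of the piRNA pathway and transposon control, 9 were lower and 0 higher (median log2 ratio -3.24). The read filter is a mean over all 48 cells, of which 35 are Gata6-low. A gene found in Gata6-low cells alone thus passes more readily than a gene found in Gata6-high cells alone, which favours lower genes in these counts. Gpat2 and Figla, at 10.6 and 10.2 reads a cell, passed through Gata6-low cells alone, and Tex19.2 had 2 reads in Gata6-high cells. Gpat2, which acts in piRNA production, had 0 reads in Gata6-high cells and 510 in Gata6-low cells, at least 93.5-fold lower in mean CPM with a floor of 3 reads over the state (31.4-fold without its highest Gata6-low cell). Tdrd5, a tudor protein of the germ granule, averaged 0.317 CPM in Gata6-high cells and 6.06 CPM in Gata6-low cells. Both RNA-binding and determination genes tested were lower: Dnd1 averaged 1.44 CPM in Gata6-high cells and 12.7 CPM in Gata6-low cells, and Figla, an oocyte transcription factor, was at least 88.8-fold lower with the same floor. Figla was detected in 2 of 35 Gata6-low cells, and without the higher of them the bound was 16.1-fold.

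Of 17 meiotic genes, 12 were lower in Gata6-high cells and 2 higher (median log2 ratio -1.59), against 27.7% and 18.2% of all tested genes. Tex14, a protein of germ cell bridges, averaged 1.55 CPM in Gata6-high cells and 41.2 CPM in Gata6-low cells, with detection in 5 of 13 and 26 of 35 cells. Sycp2, the partner of Sycp3 on the chromosome axis, averaged 0.0874 CPM in Gata6-high cells and 5.96 CPM in Gata6-low cells, with detection in 1 of 13 and 4 of 35 cells. Prdm9, the methyltransferase that places meiotic recombination, went the other way: it averaged 26.4 CPM in Gata6-high cells, with detection in 7 of 13, and 0.155 CPM in Gata6-low cells, with detection in 1 of 35. Of 12 tested genes in the list named other germline-restricted, 6 were lower and 4 higher (median log2 ratio -1.49). Whether each of them is restricted to the germline was not tested. Ddx25, a testis RNA helicase, averaged 0.542 CPM in Gata6-high cells and 20.6 CPM in Gata6-low cells, and Taf9b averaged 34.2 CPM in Gata6-high cells and 1.67 CPM in Gata6-low cells. Dpep3 had 3 reads in Gata6-high cells (counting interval 0.619 to 8.77) and 492 in Gata6-low cells, through which it passed the read filter. In Gata6-low cells 1 cell held 99.1% of its level, and without that cell the log2 ratio was 0.78. Single cells also carried much of Tdrd5 and Sycp2, whose log2 ratios without their highest Gata6-low cell were -3.07 and -5.15, and of Prdm9, at 6.33 without its highest Gata6-high cell.

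Of 8 genes of primordial germ cell specification, 7 were lower in Gata6-high cells and 1 higher (median log2 ratio -2.22). Over all tested genes, 27.7% were lower and 18.2% higher. Prdm14 averaged 1.64 CPM in Gata6-high cells and 29.4 CPM in Gata6-low cells, Prdm1 (Blimp1) averaged 2.63 CPM in Gata6-high cells and 29.6 CPM in Gata6-low cells, and Tfap2c averaged 4.30 CPM in Gata6-high cells and 47.7 CPM in Gata6-low cells. These are transcription factors that set up the germline, and Prdm14 also acts in naive pluripotency. Prdm14 and Dppa3 stand both in this list and in that of naive pluripotency, so the counts of these lists are not separate. The gene with the higher mean was Kit, the receptor for stem cell factor on migrating germ cells, at a log2 ratio of 3.17 and with detection in 13 of 13 Gata6-high cells and 19 of 35 Gata6-low cells; it was singled out after its value was seen.

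Genes whose products hold germline promoters down had median ratios nearer 0. Of 13 PRC1.6 genes, 3 were at least 2-fold lower in Gata6-high cells and 1 higher, with a median log2 ratio of -0.22, the same as over all tested genes, and the count of lower genes was near the 27.7% of all tested genes. Pcgf6, the subunit that defines the complex, averaged 16.5 CPM in Gata6-high cells and 60.8 CPM in Gata6-low cells, and Hdac2 averaged 34.1 CPM in Gata6-high cells and 122 CPM in Gata6-low cells. Yaf2 averaged 49.0 CPM in Gata6-high cells and 2.95 CPM in Gata6-low cells. Of 13 genes of DNA methylation and histone H3 lysine 9 silencing, 5 were lower and 0 higher (median log2 ratio -0.48), against the same 27.7%. The 3 with the largest ratios were Atf7ip (-2.84), the methyltransferase gene Dnmt3a (-2.79) and Setdb1 (-1.91). Of 4 genes of DNA demethylation, 2 were lower and 1 higher. Tet1 averaged 297 CPM in Gata6-high cells and 1006 CPM in Gata6-low cells, Tet2 averaged 174 CPM in Gata6-high cells and 586 CPM in Gata6-low cells, and Tet3 averaged 27.2 CPM in Gata6-high cells and 5.77 CPM in Gata6-low cells. The 5 other alpha-tubulin genes had a median log2 ratio of -0.45, with 2 lower and 0 higher: Tuba4a was at -1.55 and Tuba1c at 0.50.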

How the data were processed

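The authors deposited a single table of raw, whole-number counts for each gene row, with 1 column per lane library, 96 in all. The build mm9 and the tools Subread 1.4.5-p1, featureCounts and STAR 2.3.1z12 stand in the submitters' processing notes without role or order. The treatment of reads that match more than 1 gene is not given in the sources used here. The kit does not mark strand.

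Lanes were added per cell. Counts were scaled to CPM with edgeR 4.0.16 (TMMwsp factors) in R 4.3.3. A gene was called detected at 5 or more reads once each cell had been thinned to 4408953 reads. Ratios of mean CPM were taken for genes that averaged 10 or more reads a cell over all 48 cells, with a threshold of 2-fold. As 35 of these are Gata6-low, genes found in that state alone pass more readily. The variance trend came from scran 1.30.0 on log2(CPM + 1), and DESeq2 1.42.0 gave alternative size factors; neither gave p-values here. Simulated data with known changes were used to try the ratio of mean CPM and the variance rank alone. Scaling, thinning and the detection call were not tried in this way. No doublet caller was run. Reads carry no molecular identifiers, so amplification copies count more than 1 time.

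The genes and the 18 gene lists were chosen with earlier results of these data known. Named are the 8 genes, for each the 2 tested genes with the highest rho in Gata6-low cells, up to 3 tested genes per list with the largest log2 ratio in either direction, and the near copies Tex19.2 and Tuba3b. Other overlaps of named genes with neighbouring genes were not examined. Shared 50-base words and exon overlaps come from GENCODE vM21 transcripts, a later build than the counts, and sequences from RefSeq.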

Additional observations from a re-analysis of the deposited data

How the results depend on the processing

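The labels name no separate cultures, so how far the results hold in another culture is not known. Of 50 recomputed summaries, 48 stayed within 1.5 times their main value or within the spread over cells. This limit was wide for the median number of genes detected per Gata6-high cell. Medians from 0 to 4 counted as held, against a main value of 2. A Gata6 division at 5 CPM left every cell in its state, so summaries under it could not move. With a pseudocount of 10 CPM, 1 of the 8 germline genes lay among the 1% of genes with the largest variance above the trend, against 3. As a difference of mean log2(CPM + 1), an alternative added after seeing the data, 16.5% of tested genes were at least 2-fold lower in Gata6-high cells, against 27.7%. No log2 ratio of the 8 genes past 2-fold changed sign. Mael missed 2-fold under 4 alternatives: with unscaled library sizes (-0.93), without its highest cell (-0.86), and in Gata6-high cells with Pou5f1 detected (-0.66) or with pluripotency genes kept (-0.66, added after seeing the data). The cause was not tested. Of the recomputed detection shares 118 held and 26 moved, and of the variance ranks 29 held and 11 moved. Values of other genes without their highest cell were likewise added after seeing the data. No paired analysis was possible because all cells belong to 1 group with no replicate numbers. Genes with a few reads per cell lie near the detection minimum of 5 reads: with 1 read, Morc1 was found in 100% of cells of both states.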

Other observations

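The lists that describe the cells themselves moved with the Gata6 state, as did the germline genes. Of 15 naive pluripotency genes tested, 11 were at least 2-fold lower in Gata6-high cells and 0 higher, with a median log2 ratio of -1.91. The shares over all tested genes were 27.7% lower and 18.2% higher. Tcl1 averaged 1.64 CPM in Gata6-high cells and 161 CPM in Gata6-low cells, and Dppa3 averaged 36.5 CPM in Gata6-high cells and 230 CPM in Gata6-low cells. Of 8 core pluripotency genes, 6 were lower and 0 higher (median log2 ratio -1.60). Pou5f1 averaged 17.4 CPM in Gata6-high cells and 84.2 CPM in Gata6-low cells, Sox2 was at a log2 ratio of -1.74 and Dppa4 at -2.04. All 16 primitive endoderm genes were higher in Gata6-high cells, with a median log2 ratio of 9.61, and this list holds Gata6 itself, which made the division. Srgn averaged 848 CPM in Gata6-high cells and 0.621 CPM in Gata6-low cells. Foxa2, with 0 reads in Gata6-low cells, was at least 1417-fold higher with a floor of 3 reads over the state. It passed the read filter through Gata6-high cells alone.

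Genes of other cell types were few. Of 6 trophoblast genes, 2 were tested, with Eomes at a log2 ratio of -2.16 and Gata3 at 0.00 (-0.65 without its highest Gata6-high cell and 0.75 without its highest Gata6-low cell). Of 5 neuroectoderm genes 2 were tested: Neurod1 averaged 2.79 CPM in Gata6-high cells and 26.4 CPM in Gata6-low cells, with detection in 1 of 13 and 14 of 35 cells, and Nes was at a log2 ratio of 2.05. Mixl1, the 1 mesendoderm gene tested, was at 0.43 (-0.53 without its highest Gata6-high cell). Of the genes known from gonadal support cells, Gata4, which primitive endoderm also expresses, averaged 179 CPM in Gata6-high cells and 0.260 CPM in Gata6-low cells. Wt1 averaged 30.8 CPM in Gata6-high cells, with detection in 4 of 13, and 5.67 CPM in Gata6-low cells, with detection in 6 of 35. None of the 8 2-cell-like genes and none of the 6 fibroblast genes reached the mean of 10 reads per cell.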
